A study of Mus musculus with 16 samples.

Results

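The transcripts described here are 7 long noncoding RNAs of the mouse dentate gyrus, Malat1, Neat1, Meg3, Rian, Mirg, Miat and Snhg11, out of 24421 gene names in the abundance tables. They were picked on the large spread of their TPM values between libraries, so that spread and the differences between groups that follow from it are given as a description and carry no test. Each of the 7 names had a single entry in each of the 16 tables. TPM scales each library to the same total of transcripts and corrects for transcript length, so levels can be compared between genes.

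The libraries came from the dissected dentate gyrus of male C57BL/6 mice aged 1 year, in 4 groups of 4 libraries, and each library pooled 2 animals. Genotype was p16Ink4a +/+ (p16 WT) or p16Ink4a -/- (p16 KO), and mice were sedentary (CTL) or had a running wheel for 12 days (RUN), which gave p16 WT CTL (replicates 1 to 4), p16 KO CTL (5 to 8), p16 WT RUN (9 to 12) and p16 KO RUN (13 to 16). The null allele removes p16Ink4a and leaves p19Arf, the other product of Cdkn2a, in place. It is present in every cell of the animal, and the line was made in FVB mice and crossed to C57BL/6. The tables give only whole Cdkn2a, which was between 0 and 0.586 TPM in all 16 libraries, so this level does not check the genotype labels. The comparisons ask how running changes the dentate gyrus of mice without p16, a cell cycle inhibitor that holds back the division of aged neural stem cells.

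Long noncoding RNAs of this kind act mostly as RNA in the nucleus. Malat1 collects in nuclear speckles, bodies rich in splicing factors, and Neat1 is the scaffold of paraspeckles, bodies that retain RNA-binding proteins. Meg3, Rian and Mirg are transcribed in the same direction from the maternal chromosome of the imprinted Dlk1-Dio3 region, where the paternal chromosome expresses the protein genes Dlk1, Rtl1 and Dio3. Rian carries many C/D box small nucleolar RNAs in its introns, and Mirg is the host of a large group of microRNAs. Miat, also called Gomafu, is a nuclear RNA of neurons that binds splicing factors. Snhg11 is a small nucleolar RNA host gene expressed strongly in neurons.

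In mm10 (GRCm38), Malat1 lay at chr19:5795690-5802671 and Neat1 at chr19:5824710-5845480, both on the minus strand and 22038 bases apart. On the plus strand of chromosome 12 followed Meg3 (chr12:109540996-109571729), Rian (chr12:109603945-109661711) and Mirg (chr12:109734981-109749457), with 32215 bases between Meg3 and Rian and 73269 between Rian and Mirg. Miat was at chr5:112213228-112228948 on the minus strand and Snhg11 at chr2:158375638-158386145 on the plus strand. The spans are those of the deposited entries and hold exons and introns together.

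The 300 bases from 250 before to 50 after the annotated start were available from RefSeq (GRCm38.p6) for 6 of the 7 genes, Neat1 being the other one. Those of Meg3 and Snhg11, the pair whose levels were most alike over the libraries, and of Rian, the member that varied least, are given 5′ to 3′ on the strand of the gene, with the capitals marking the motifs found.
Meg3 (chr12:109540746-109541045, plus strand): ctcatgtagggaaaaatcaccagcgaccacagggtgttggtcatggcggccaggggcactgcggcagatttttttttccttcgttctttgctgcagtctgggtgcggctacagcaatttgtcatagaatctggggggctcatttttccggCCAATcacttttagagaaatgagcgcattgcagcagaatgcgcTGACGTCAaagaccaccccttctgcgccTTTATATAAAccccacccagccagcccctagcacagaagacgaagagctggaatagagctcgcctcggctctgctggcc
Snhg11 (chr2:158375463-158375762, plus strand): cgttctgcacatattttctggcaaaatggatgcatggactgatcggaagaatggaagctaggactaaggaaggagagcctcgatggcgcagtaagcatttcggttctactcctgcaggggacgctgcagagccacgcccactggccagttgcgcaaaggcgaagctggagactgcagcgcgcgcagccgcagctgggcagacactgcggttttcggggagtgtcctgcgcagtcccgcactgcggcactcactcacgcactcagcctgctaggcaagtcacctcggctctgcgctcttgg
Rian (chr12:109603695-109603994, plus strand): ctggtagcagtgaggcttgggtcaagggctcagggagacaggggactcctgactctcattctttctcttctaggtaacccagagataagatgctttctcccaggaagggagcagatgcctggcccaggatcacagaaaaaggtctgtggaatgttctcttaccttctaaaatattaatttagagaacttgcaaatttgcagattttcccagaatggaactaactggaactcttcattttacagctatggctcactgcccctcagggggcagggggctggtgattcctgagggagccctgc

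These 6 windows were searched on both strands for 6 motifs. TGACGTCA is the full cyclic AMP response element, and the AP-1 site was written as TGANTCA. The E-box searched was CACGTG, and the box bound by NF-Y was searched as CCAAT. The TATA box was taken as TATAAA, and the core of the Sp1 site as GGGCGG. No match of 1 motif overlapped a match of another. Meg3 held TGACGTCA at position -57 from its start, CCAAT at position -100 and 2 overlapping matches of TATAAA, and it was the only member with either of the first and last of these motifs. Among 32851 promoter windows of the same length, 1.79% held TGACGTCA, 37.4% CCAAT and 13.6% TATAAA. Mirg held CCAAT at position -184, and Miat held GGGCGG, present in 35.7% of windows, at position -224. None of the 6 motifs occurred in the windows of Malat1, Rian and Snhg11, and neither TGANTCA (7.81% of windows) nor CACGTG (7.15%) occurred in any of the 6. The windows of Snhg11 and Meg3 thus shared no motif of this set. The Rian window held 0 CG dinucleotides and the Snhg11 window 21, with a GC content of 49.3% and 60%, against a median of 52.7% (quartiles 45.7% and 61.7%) over all windows. A match is a run of letters only, and no binding was measured.

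Before the levels, the libraries themselves differed. In p16 WT CTL replicate 2 and p16 KO CTL replicates 6 and 7, all 7 members were below their lowest value in the other 13 libraries, and these 3 are called the low libraries below. With the 7 members left out, the log2 levels of 14431 genes averaging 1 TPM or more had a median correlation with the other 15 libraries of 0.969 in replicate 6 and 0.965 in replicate 7, under the 0.978 to 0.984 of the 13 others, whereas replicate 2 was within that range at 0.978. Depth relative to the other libraries, read from the coverage values, was 2.21 in replicate 2, 1.91 in replicate 7 and 1.15 in replicate 6, and 0.710 to 1.21 in the other 13. Low levels and depth thus moved together in 2 of the 3 libraries, and the part of depth was not tested. The granule neuron markers Prox1, C1ql2 and Calb1 were at least 58.1, 199 and 89.2 TPM in every library. Their amount was not even, however. The 11 listed granule neuron genes summed to 619 TPM in p16 KO CTL replicate 8, the lowest, and to 1604 TPM in p16 WT CTL replicate 3, the highest. In the low replicates 2, 6 and 7 they summed to 781, 1241 and 916 TPM. The 10 interneuron genes summed to 1656 to 2763 TPM, with the highest sum in replicate 2.

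Malat1 and Meg3 were the most abundant of the 7, with a median over 16 libraries of 504 and 549.9 TPM, followed by Snhg11 (399), Rian (248), Miat (247), Neat1 (75.5) and Mirg (16.6). Over all 16 libraries the ranges of these first 5 overlapped. Over the 13 other libraries Rian (193.6 to 364.7 TPM) and Miat (188.2 to 329.4 TPM) overlapped each other and Snhg11 (322.9 to 512.6 TPM), and Rian also overlapped Malat1 (359.1 to 855.9 TPM). The order of the 5 is thus not fixed by these data, apart from Meg3 (473.5 to 737.4 TPM) lying above Rian and Miat, and Malat1 above Miat. In these libraries Neat1 (58.5 to 99.2 TPM) and Mirg (13.1 to 20.6 TPM) were each separate from all others.

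Malat1 was at 439, 202, 701 and 640.2 TPM in p16 WT CTL replicates 1 to 4 and at 457, 123, 67.1 and 359 TPM in p16 KO CTL replicates 5 to 8. After running it was at 436, 856, 484 and 523 TPM in p16 WT RUN and at 634, 625.5, 606 and 609 TPM in p16 KO RUN. The 4 p16 KO RUN libraries were close together, at 619 ± 13.2 (SD, n = 4), and all lay above every p16 KO CTL library (251.5 ± 186). All other pairs of groups overlapped, and p16 WT RUN replicate 10 held the highest value of all.

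Neat1, the paraspeckle scaffold, showed 79.8, 42.8, 88.5 and 74.6 TPM in p16 WT CTL and 82.2, 18.6, 32.2 and 88.5 TPM in p16 KO CTL. It was at 68.3, 99.2, 58.5 and 91.9 TPM in p16 WT RUN and 80.7, 71.2, 67.8 and 76.3 TPM in p16 KO RUN. Every pair of groups overlapped, and within p16 KO CTL replicates 5 and 8 were at the level of the runners.

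Meg3, a maternally expressed RNA with tumour suppressor activity in cultured cells, was at 511, 258, 556 and 695 TPM in p16 WT CTL and at 550.0, 107, 91.3 and 648 TPM in p16 KO CTL. In the runners it reached 487, 547, 564 and 737 TPM in p16 WT RUN and 615, 473.5, 624 and 549.8 TPM in p16 KO RUN. The p16 KO CTL group therefore held both the lowest values and one of the higher ones, with a mean of 349 ± 291 TPM (SD, n = 4).

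Rian, the snoRNA host of the cluster, varied less. It was at 194, 167, 242 and 276 TPM in p16 WT CTL and at 253, 149, 169.8 and 273 TPM in p16 KO CTL. The runners showed 206, 282, 207 and 365 TPM with p16 (p16 WT RUN) and 261, 242, 285.5 and 278 TPM without it (p16 KO RUN). The low libraries were still its 3 lowest, but at 57.1% to 65.1% of the median of the other 13, against 11.1% to 33.4% for Malat1 and 16.4% to 46.4% for Meg3, the neighbouring transcript of the same imprinted cluster.

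Mirg, the third maternal transcript of the cluster, was at 14.3, 7.79, 19.9 and 18.8 TPM in p16 WT CTL and 17.8, 4.47, 5.19 and 18.3 TPM in p16 KO CTL. It ranged from 14.1 to 19.3 TPM in p16 WT RUN and from 13.1 to 20.6 TPM in p16 KO RUN. Although its level was the lowest of the 7, its spread was close to that of the far more abundant Neat1.

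Miat was at 242, 99.6, 317 and 329 TPM in p16 WT CTL and 263, 61.2, 36.6 and 189 TPM in p16 KO CTL. It ranged from 199 to 299.9 TPM in p16 WT RUN and from 188 to 271 TPM in p16 KO RUN. As with Malat1, replicate 8 was the lowest p16 KO CTL library after the low ones, at 189 TPM, whereas the same library held the highest Snhg11 value of the 16.

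Snhg11 was at 392, 198, 424 and 495 TPM in p16 WT CTL and 409, 76.8, 76.3 and 513 TPM in p16 KO CTL. It ranged from 371 to 434 TPM in p16 WT RUN and from 323 to 442 TPM in p16 KO RUN. In the low libraries it was at 18.7% to 48.4% of the median of the other 13.

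**Figure D1:**
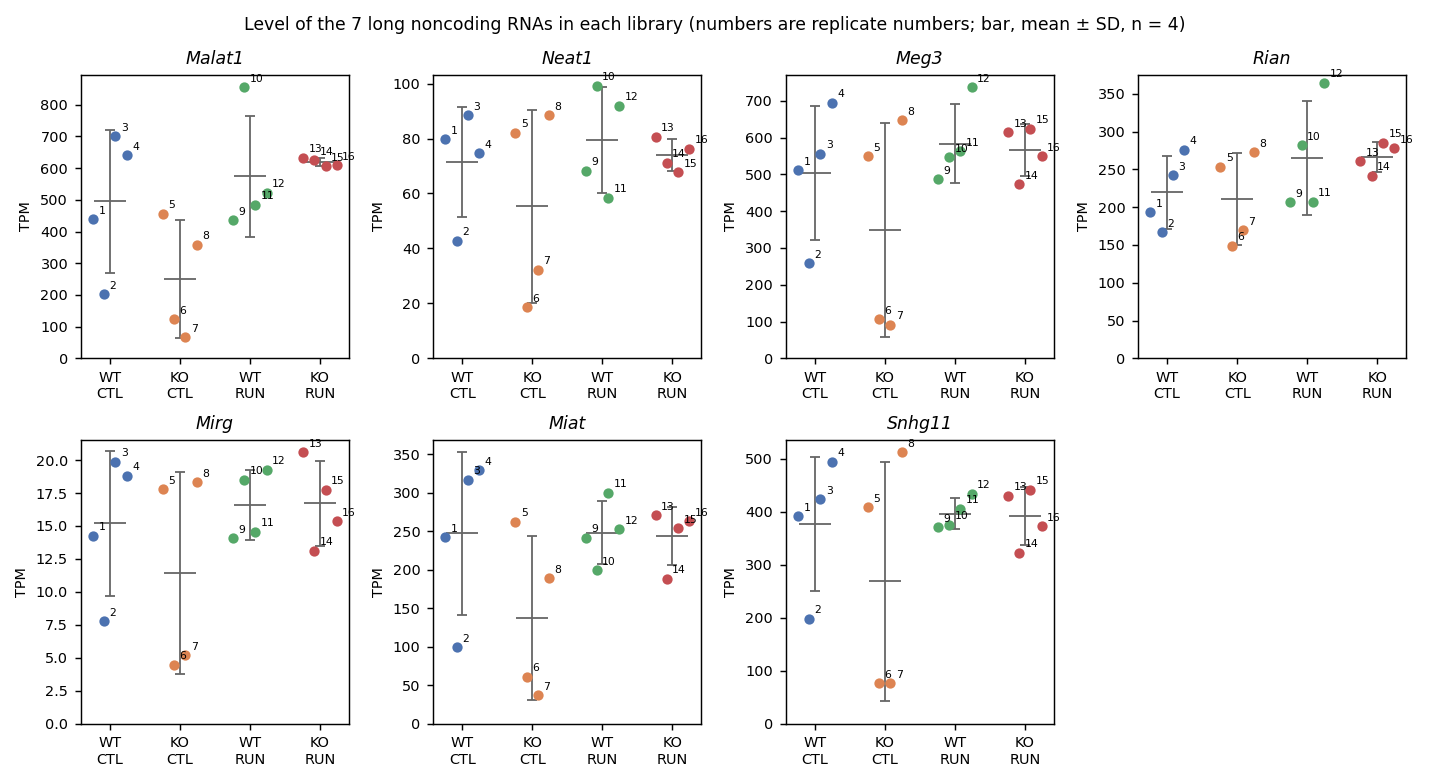
Level of each long noncoding RNA in TPM (vertical axis, linear from 0) in the 16 libraries, by group; points are libraries with their replicate number, and the bar and whiskers are the mean ± SD of 4 libraries. Replicates 2, 6 and 7 are the lowest in all 7 panels, least so for Rian in proportion to the median of the other 13, and the 4 p16 KO RUN libraries of Malat1 lie between 606 and 634 TPM.

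The SD of log2 levels over the 16 libraries was 0.95 for Malat1, 0.86 for Meg3, 0.85 for Miat, 0.82 for Snhg11, 0.64 for Mirg, 0.60 for Neat1 and 0.32 for Rian, against a median of 0.17 over 14438 genes averaging 1 TPM or more. All of these spreads but that of Rian exceeded those of 94.6% to 97.9% of genes, and that of Rian exceeded 79.8%. The members were chosen on this spread, so it is no finding. Without the low libraries the SDs were 0.18 (Snhg11) to 0.34 (Malat1) against a gene median of 0.14, larger than those of 61.7% to 86.1% of genes. The spread lay mostly inside groups: differences between the 4 group means made up 20.8% (Rian) to 47.8% (Malat1) of the sum of squares, against a median of 26.4% over genes. The SD within p16 KO CTL was 0.38 for Rian and 1.04 to 1.45 for the other 6, and within p16 KO RUN it was 0.04 for Malat1 and 0.09 to 0.26 for the other 6.

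The group comparisons followed the study's 5 pairwise sets. Differences are log2 differences of scaled TPM after adding 0.1 TPM, with their SE, from limma fits over 17317 genes averaging 0.1 TPM or more. The sets share groups, so they are not independent of each other. In Set A, which compared running with sedentary p16 KO mice, the largest difference was that of Malat1, at 1.62 ± 0.51, a 3.08-fold higher level in the runners. Miat differed by 1.17 ± 0.53, Meg3 by 1.15 ± 0.59 and Snhg11 by 0.99 ± 0.59, while Mirg (0.75 ± 0.44), Neat1 (0.63 ± 0.43) and Rian (0.31 ± 0.17) differed less. The median of the 7 was 0.99, against 0.02 over all genes. Malat1 was the 1 member of 7 whose libraries did not overlap in Set A, and 10.4% of all genes tested had non-overlapping libraries there.

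The low libraries were all sedentary and were named for low values of these same members. Leaving them out therefore lowers the Set A differences by construction, and the values that follow are a description. With replicates 2, 6 and 7 left out, a choice made after their values were seen, p16 KO CTL was represented by 2 libraries. The median Set A difference was then -0.11, with 2 of 7 members higher in p16 KO RUN. Malat1 differed by 0.59 ± 0.08 and Miat by 0.10 ± 0.17 in this fit. Meg3 (-0.11 ± 0.13), Snhg11 (-0.25 ± 0.15), Neat1 (-0.23 ± 0.08), Mirg (-0.15 ± 0.17) and Rian (0.00 ± 0.08) were level or lower.

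In Set B, the sedentary p16 KO against the sedentary p16 WT mice, all 7 values were below 0. Malat1 differed by -1.16 ± 0.60, Miat by -1.06 ± 0.61, Meg3 by -0.91 ± 0.64 and Snhg11 by -0.87 ± 0.63, while Rian differed by -0.01 ± 0.20. No member had non-overlapping libraries (2.7% of all genes did). Without the low libraries Malat1 was at -0.48 ± 0.21 and Miat at -0.36 ± 0.17, and the other 5 were between 0.07 and 0.20, so that the median moved from -0.87 to 0.08.

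In Set C, running against sedentary p16 WT mice, the 7 differences were between 0.12 (Miat) and 0.30 (Malat1), with SEs of 0.205 to 0.36. In Set D, running p16 KO against sedentary p16 WT mice, they were between 0.09 (Neat1) and 0.46 (Malat1), with SEs of 0.125 to 0.32. No member had non-overlapping libraries in either, where 3.34% and 5.68% of all genes did. Without p16 WT CTL replicate 2 the medians moved from 0.19 to -0.06 in Set C and from 0.20 to -0.07 in Set D. Set E, which compared the runners of both genotypes, contains none of the low libraries. Its 7 differences lay between -0.07 (Neat1) and 0.17 (Malat1), with a median of -0.02 and SEs of 0.10 to 0.19, and no member's libraries were apart, as in all but 2.46% of genes. The difference between the effect of running in p16 KO and in p16 WT was 1.32 ± 0.68 for Malat1, 1.05 ± 0.67 for Miat and 0.07 ± 0.28 for Rian. Its median over the 7 was 0.85, and -0.10 without the low libraries.

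**Figure D2:**
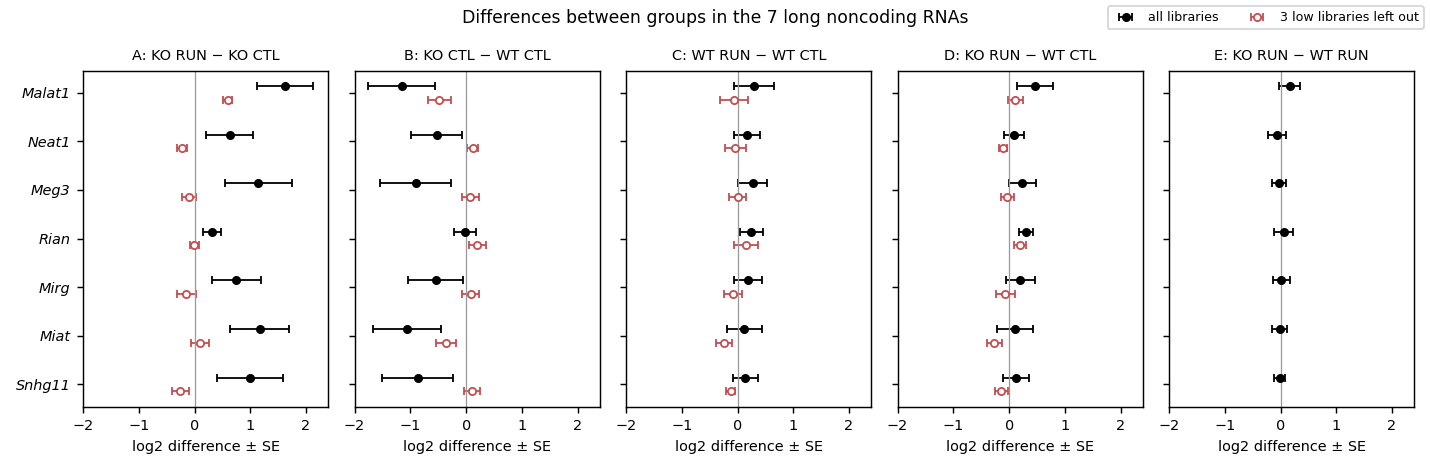
Log2 difference ± SE (horizontal axis) of each long noncoding RNA in Sets A to E, from all libraries (black) and with replicates 2, 6 and 7 left out (red, open; Set E holds none of them). The Set A difference of Malat1 is 1.62 with all libraries and 0.59 without the low ones, and the 7 differences of Set E lie between -0.07 and 0.17.

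Because the 16 libraries divide into the low libraries and the rest, correlations between members were taken over all 16 and over the 13 others. They are descriptions and carry no p, because the members were picked on these values. Over 16 libraries Pearson's r of the 21 pairs was 0.608 to 0.992, with a median of 0.905, and after removing the group means it was 0.596 to 0.993. Meg3 and Snhg11, on chromosomes 12 and 2, were the most alike (r = 0.992, Spearman's rho = 0.926). By this measure the 6 pairs with Rian were lower (0.608 with Miat to 0.802 with Mirg; median 0.732) than the 15 others (median 0.917). By Spearman's rho their median was 0.709 against 0.635, and by Pearson's r over 13 libraries 0.472 against 0.243, so the order turned with the measure.

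Over the 13 other libraries the median r was 0.30, and r ranged from -0.37 (Neat1 with Miat) to 0.83 (Meg3 with Snhg11). For the 3 transcripts of the imprinted cluster r was 0.759 for Meg3 and Rian, 0.73 for Meg3 and Mirg and 0.651 for Rian and Mirg. Neat1, which lies outside the cluster, was at 0.633 with Mirg, 0.551 with Rian and 0.324 with Meg3. Snhg11 kept its likeness to Meg3 (0.827) and Mirg (0.687). Malat1 and Neat1, neighbours on chromosome 19, were at 0.243, and Malat1 and Miat at 0.09.

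**Figure D3:**
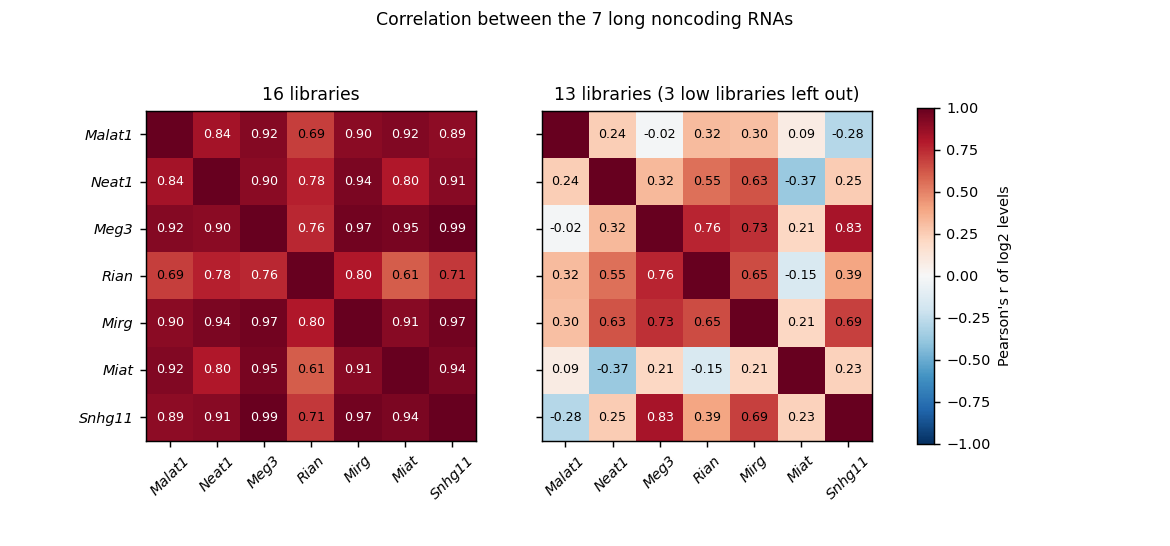
Pearson's r of log2 levels between the 7 long noncoding RNAs over all 16 libraries (left) and over 13 (right); colour runs from -1 (blue) to 1 (red). The 21 pairs lie between 0.608 and 0.992 on the left, and on the right Meg3, Rian, Mirg and Snhg11 keep values from 0.393 to 0.827 while Malat1 and Miat lie between -0.37 and 0.32 with all others; Neat1 is at 0.633 with Mirg, 0.551 with Rian, 0.324 with Meg3 and 0.254 with Snhg11.

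The genes most like each member were found over 16 libraries among genes averaging 1 TPM or more, the members excluded. Miat was closest to Pnisr (r = 0.995), Leng8 (0.994) and Nktr (0.993), which encode arginine and serine rich or nuclear proteins, and these values over the 13 other libraries were 0.926, 0.926 and 0.91. Malat1 was closest to the chloride and proton exchanger gene Clcn7 (0.969), Agrn (0.965), which encodes agrin, and the DNA demethylase gene Tet2 (0.964), with 0.796, 0.721 and 0.557 over 13. Meg3 was closest to Rtl1 (0.976), a paternally expressed gene on the opposite strand between Meg3 and Rian, then Clasrp (0.971), a splicing factor gene, and Mir124a-1hg (0.967), the host of a neuronal microRNA, with 0.792, 0.617 and 0.175 over 13.

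The neighbours of Rian had lower values over 16 libraries: Sppl2b (0.891), Nlgn2 (0.879), which encodes a synaptic adhesion protein of inhibitory synapses, and Abca2 (0.876), with 0.78, 0.782 and 0.748 over 13. Mirg was closest to Rgs11 (0.97), Clasrp (0.968) and Iqgap1 (0.966), Snhg11 to R3hdm1 (0.970), Rgs11 (0.969) and Col19a1 (0.969), and Neat1 to Slc11a2 (0.946), Spaca6 (0.939) and Reck (0.932). Over 13 libraries these values were 0.641 to 0.668 for Mirg, 0.668 to 0.786 for Snhg11 and 0.352 to 0.615 for Neat1. For the mean of the 7 standardized log2 levels, the member score, the highest values were those of Clasrp (0.978), Pnpla6 (0.968), Rgs11 (0.968) and the entries Mir1906-1 and Mir1906-2 (0.967 each), which lie inside Meg3. Among the lowest were those of Gstm5 (-0.962), a glutathione transferase gene, the ribosomal protein gene Rpl13 (-0.951), the initiation factor gene Eif3h (-0.949) and Gm15772 (-0.947). Over 13 libraries the highest were at 0.603 to 0.765, whereas Gstm5 was at -0.41, Rpl13 at 0.05, Eif3h at -0.32 and Gm15772 at -0.04.

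Other genes of these RNA bodies and gene groups were taken as lists, which differed in how they related to the members. The median r with the member score over 16 libraries was 0.722 for 57 nuclear speckle and splicing proteins, 0.351 for 34 other long noncoding RNAs, 0.319 for 30 paraspeckle proteins, 0.19 for 37 other imprinted genes, 0.05 for 21 protein genes in and around Dlk1-Dio3 and -0.896 for 83 cytosolic ribosomal protein genes, against 0.02 over 14438 genes. Over 13 libraries the same medians were 0.00, 0.158, -0.01, 0.02, 0.07 and 0.08.

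Summed levels were compared next. The ribosomal protein genes summed to 58827 TPM in replicate 2, 70306 in replicate 6 and 66007 in replicate 7, and to 50609 to 56369 TPM in the other 13 libraries. The speckle and splicing proteins summed to 6304, 5964 and 5056 TPM in replicates 2, 6 and 7, and to 6948 to 8620 TPM in the other 13. The other imprinted genes (4877 to 5480 TPM in the low libraries, 4478 to 5594 TPM in the rest) and the protein genes in and around Dlk1-Dio3 (1897 to 2096 and 1687 to 2026 TPM) overlapped. Of the cell type markers, the 10 astrocyte genes (median r = -0.849) summed to 4126, 4823 and 4687 TPM against 3257 to 3978, the 10 microglia genes (-0.794) to 695, 824 and 775 against 539 to 653, and the 10 endothelial genes (0.80) to 137, 94.4 and 99.9 against 155.5 to 223.7. By group, the endothelial sum ran from 137 to 184.1 TPM for p16 WT CTL and 94.4 to 186.5 TPM for p16 KO CTL, and from 170.3 to 201.8 TPM for p16 WT RUN and 155.5 to 223.7 TPM for p16 KO RUN. The 10 oligodendrocyte genes (-0.33) summed to 2207, 1711 and 2365 TPM in replicates 2, 6 and 7 and to 1086 to 2641 TPM in the rest, and by group to 1593 to 2641 TPM for p16 KO CTL and 1273 to 1629 TPM for p16 KO RUN. In Set A, where 10.7% of all genes passed as higher and 7.74% as lower, 6 of the 10 oligodendrocyte genes, among them Mbp (-0.72 ± 0.20), 4 of the 10 astrocyte genes and 3 of the 10 microglia genes passed an unadjusted p under 0.05 by limma as lower, and 2 of the 10 endothelial genes as higher. With TPM as deposited 3 oligodendrocyte and 1 microglia genes passed, and without the low libraries 3 oligodendrocyte, 2 astrocyte, 0 microglia and 0 endothelial genes. Among the lost calls, the differences of the microglia genes Trem2, P2ry12 and Csf1r went from -0.47, -0.42 and -0.25 to -0.19, -0.07 and -0.08, and those of the endothelial genes Pecam1 and Tek from 0.53 and 0.66 to 0.15 and 0.17. Those of the astrocyte genes S100b and Slc1a3 went from -0.41 and -0.34 to -0.11 each. The oligodendrocyte genes Mal and Cnp were at -0.45 and -0.39 with all libraries and at -0.45 and -0.30 without the low ones, p16 KO CTL then having 2 libraries. The fit of all 16 libraries called 6 microglia and 5 endothelial genes. With no filter 2 oligodendrocyte, 1 microglia and 0 endothelial genes passed, and with no variance trend 2, 1 and 1. Leaving out 1 library gave 2 to 8 oligodendrocyte, 2 to 7 astrocyte, 0 to 8 microglia and 0 to 5 endothelial calls. Over the 13 other libraries the median r with the member score was 0.03 for astrocyte, 0.27 for microglia, -0.32 for endothelial and 0.06 for oligodendrocyte genes. The 11 granule neuron genes had a median r of 0.06 over 16 libraries and -0.12 over 13, and none of the markers of these 4 cell types was at 0 in any library. Choroid plexus genes summed to 221 TPM in replicate 7 and to 19.9 to 68.4 TPM in the 13 others. The part of cell composition and of the balance between these transcript classes in the members' levels was not tested, and in whole tissue fewer cells of a type cannot be told apart from less RNA per cell.

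**Figure D4:**
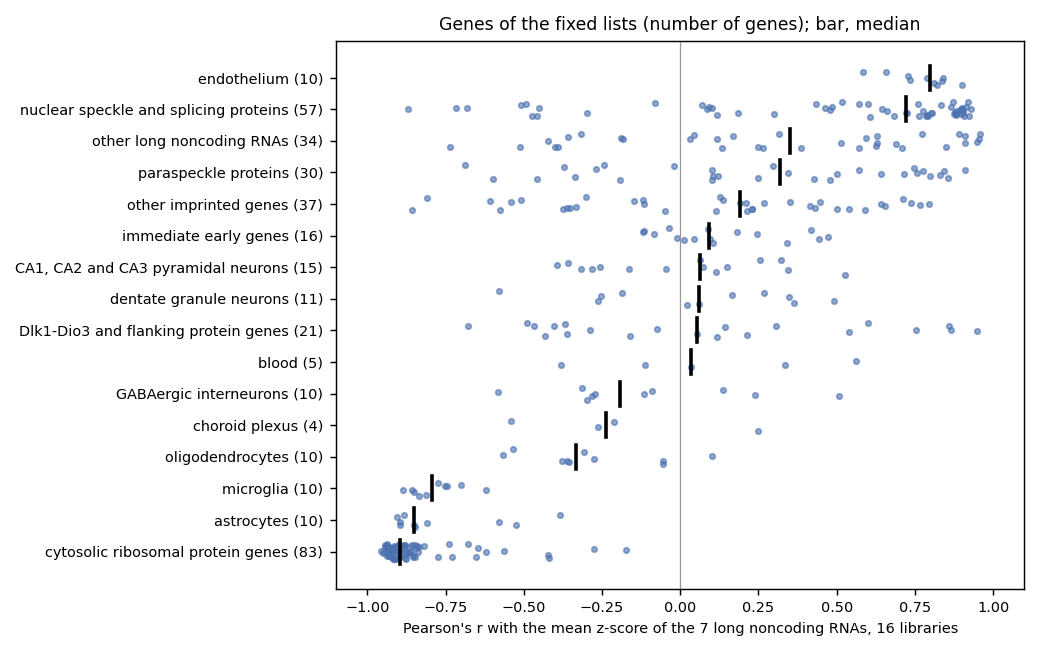
Pearson's r over 16 libraries (horizontal axis) between each gene of the lists and the mean z-score of the 7 long noncoding RNAs; points are genes, placed with random vertical scatter, and the bar is the median of the list. The ribosomal protein genes gather near -0.896 and the nuclear speckle and splicing proteins near 0.722.

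Among the other long noncoding RNAs, several were low in the low libraries, among them Kcnq1ot1, the imprinted antisense RNA of Kcnq1 (r = 0.96; at most 1.37 TPM in the low libraries and at least 2.75 TPM in the 13 others), Mir124a-1hg (0.954; at most 55.8 and at least 107.8 TPM), Firre, a nuclear RNA of the X chromosome (0.909; at most 11.9 and at least 21.8 TPM), and Ftx (0.89; at most 15.1 and at least 21.2 TPM). Over the 13 other libraries r was 0.567 for Kcnq1ot1, 0.333 for Mir124a-1hg, -0.19 for Firre and 0.04 for Ftx. Not all long noncoding RNAs varied in this way. Tug1 was at 54.7 to 64.4 TPM in all 16 libraries (r = -0.18), 2900097C17Rik at 801 to 1038 TPM (-0.39), Peg13, a paternally expressed imprinted RNA, at 153 to 179.6 TPM (-0.42), and Pantr1 was higher in the low libraries (66.1 to 72.2 TPM) than in most others (41.6 to 70.4 TPM; r = -0.74).

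Calls in the lists used the study's threshold of an unadjusted p under 0.05 in limma, and members were not counted. In Set A (10.7% of all genes higher and 7.74% lower) 5 of 40 other long noncoding RNAs were higher and 3 lower. With TPM as deposited 7 were higher and 1 lower, without the low libraries 2 were higher and 4 lower, and 3 (without p16 KO RUN replicate 14) to 15 (without p16 KO CTL replicate 5) passed when 1 library was left out. With no filter 4 passed. Pantr1 fell by 0.56 ± 0.09 (adjusted p = 0.09), 1700020I14Rik rose by 0.24 ± 0.08, Mir22hg, the host of miR-22, rose by 0.41 ± 0.13 and Peg13 fell by 0.12 ± 0.04, the last 3 with adjusted p of 0.208 to 0.234 by limma. All 4 stayed past the unadjusted threshold in the same direction without the low libraries. However, Peg13 lost its call with TPM as deposited (-0.05), with quantile normalization (-0.07) and, at unchanged size, with no variance trend (-0.12). Of 57 speckle and splicing proteins 15 were higher and 2 lower, led by Rbm6 (0.26 ± 0.07), Prpf38b (0.47 ± 0.14) and Srsf9 (0.27 ± 0.09), and by Qk (-0.29 ± 0.09), an RNA-binding protein of glia. With no filter 9 speckle and splicing proteins passed, and with no variance trend 5. Leaving out 1 library gave 5 to 31 calls. Without the low libraries 1 was higher and 2 lower, and the calls of Prpf38b (0.26), Srsf9 (0.12) and Qk (-0.14) were lost. Of 85 ribosomal protein genes 0 were higher and 50 lower. Of these genes 41 were lower with TPM as deposited, 25 with quantile normalization and 6 without the low libraries, and 11 to 78 passed when 1 library was left out. With no filter 28 passed.

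Of the 30 paraspeckle proteins 4 were higher in Set A (Ubap2l, Taf15, Dazap1 and Zc3h6, by 0.21 to 0.26) and 0 lower. With TPM as deposited 6 passed, without the low libraries 2, and 3 to 8 when 1 library was left out. Among 44 other imprinted genes 1 was higher, the ubiquitin ligase gene Herc3 (0.21 ± 0.06), and 5 were lower, among them Nap1l5 (-0.24 ± 0.07), Gnas (-0.26 ± 0.09), which encodes a G protein subunit, and Impact (-0.18 ± 0.07). With TPM as deposited and with quantile normalization 2 were lower, and without the low libraries 8, and 4 to 9 passed when 1 library was left out. Of the 21 protein genes in and around Dlk1-Dio3 1 was higher (Degs2, 0.86 ± 0.38) and 2 lower (Slc25a29, -0.31 ± 0.10, and Hsp90aa1, -0.27 ± 0.11), and 1 to 7 passed when 1 library was left out. Without the low libraries the calls of Dazap1 (0.09), Zc3h6 (0.22), Herc3 (0.18), Degs2 (0.18), Slc25a29 (-0.30) and Hsp90aa1 (-0.15) were lost. Impact lost its call with TPM as deposited (-0.12), and Impact (-0.14), Gnas (-0.07), Zc3h6 (0.20), Degs2 (0.71) and Hsp90aa1 (-0.08) with quantile normalization. With no filter and with no variance trend the calls of Degs2 (0.86) and Hsp90aa1 (-0.27) were lost at unchanged size. With all 16 libraries in the fit that of Zc3h6 (0.25) was lost, also at unchanged size. Over all lists 114 of 382 genes tested passed in Set A, against 3196 of all 17317 genes. Of the list genes 0 had an adjusted p under 0.05 by limma, a threshold that 0.0173% of all genes passed in Set A. Without the low libraries 45 list genes passed the unadjusted threshold.

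In Set B, where 3.15% of all genes were higher and 3.54% lower, 2 of the 40 other long noncoding RNAs were higher, Pantr1 (0.39 ± 0.14) and Snhg12 (0.14 ± 0.06), and 0 lower. Without the low libraries 2 were higher and 6 lower, and 0 to 10 passed when 1 library was left out, the most without p16 WT CTL replicate 2. In the speckle list 1 was higher, Qk (0.27 ± 0.10), and 2 lower, Rbm6 (-0.24 ± 0.10) and Sf1 (-0.19 ± 0.09), and Ndn, a paternally expressed neuronal gene, was higher (0.40 ± 0.18). With quantile normalization 1 speckle protein was higher and 5 lower, and without the low libraries 2 and 5. Leaving out 1 library gave 0 to 25 speckle calls, and the highest counts came without replicate 5 of p16 KO CTL (24) or replicate 2 of p16 WT CTL (25). In Set C (2.69% higher and 2.13% lower over all genes) Snhg14, the long host transcript of the Prader-Willi region, was higher (0.45 ± 0.11) with 1 further long noncoding RNA. Snhg12 (-0.23 ± 0.05), Rmrp (-1.54 ± 0.43) and Rpph1 (-1.45 ± 0.42), small catalytic RNAs in the last 2 cases, were lower. These 2 had low levels with a wide spread. Rmrp was at 2.27 ± 1.36 TPM (SD) in p16 WT RUN and 6.63 ± 3.62 TPM in p16 WT CTL, and Rpph1 at 2.31 ± 1.01 and 6.49 ± 2.73 TPM. In Set D (4.97% and 3.66%) 1700020I14Rik (0.36 ± 0.08) and Mir22hg (0.30 ± 0.07) were higher, Peg13 (-0.13 ± 0.05) and Rpph1 (-1.50 ± 0.62) lower, and 5 speckle proteins were lower, led by Rsrp1 (-0.34 ± 0.07) and Snrpb (-0.20 ± 0.05). Without p16 WT CTL replicate 2, the low library of this comparison, 17 speckle proteins passed, and 3 to 5 without any other single library. Of the 85 ribosomal protein genes 15 were lower in Set D. With TPM as deposited or quantile normalization 25 passed, and 6 to 21 when 1 library was left out. The fit of all 16 libraries called 1 speckle protein and 1 ribosomal protein gene. Of the other long noncoding RNAs, 2 were higher and 7 lower in Set D without replicate 2. In Set E (2.11% and 1.76%) Rmrp was higher and Snhg14 (-0.34 ± 0.10) and Snhg9 (-0.55 ± 0.18) lower. The interaction, where 5.48% of all genes passed, called Pantr1 (-0.43 ± 0.18) and Snhg17 (0.70 ± 0.33). It called 2 other long noncoding RNAs as higher and 4 as lower without the low libraries, and 0 to 7 passed when 1 library was left out. Without the low libraries the calls of Snhg12, Ndn and Sf1 in Set B and of Rpph1 in Set D were lost. With TPM as deposited those of Snhg12, Ndn and Rbm6 in Set B and of Snhg17 in the interaction were lost, and with quantile normalization those of Snhg12 and Ndn in Set B. No list gene had an adjusted p under 0.05 by limma in Sets B to E or the interaction, against 0% of all genes in Sets B, C and D and the interaction and 0.00577% in Set E. The unadjusted threshold was passed by 21, 18, 36, 22 and 28 of 382 list genes. Over all 17317 genes it was passed by 1158, 833, 1495, 671 and 949.

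The imprinted cluster was then followed entry by entry. Of 75 annotated entries between Dlk1 and Dio3 or inside a member, the members left out, 22 had a mean of at least 1 TPM, and 2 of these lay inside Meg3, 8 inside Rian and 6 inside Mirg. Of the paternally expressed neighbours, Rtl1 was below its other values in the low libraries, and Dlk1 and Dio3 overlapped theirs or nearly so. Rtl1 (chr12:109590169-109595403, minus strand), a retrotransposon-derived gene opposite the maternal RNAs, was at 1.69, 0.761 and 0.478 TPM in replicates 2, 6 and 7 and at 1.91 to 3.48 TPM elsewhere. Dlk1 (chr12:109452823-109463336) was at 3.66, 0.869 and 1.17 TPM in them and at 0.349 to 4.58 TPM elsewhere, and Dio3 (chr12:110279230-110281097), which encodes a thyroid hormone deiodinase, at 6.25, 4.89 and 2.07 TPM against 2.2 to 8.66 TPM.

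Short entries in the introns of Rian went further down than Rian itself in 2 libraries. The 5 entries in its introns by the GENCODE vM21 annotation, Mir341, Mir1188, Mir370 and the small nucleolar RNAs AF357426 and DQ267102, summed to 12.4, 6.02 and 3.9 TPM in replicates 2, 6 and 7 and to 19.1 to 31.2 TPM in the other 13 libraries. Relative to Rian this was 7.46%, 4.04% and 2.3%, against 6.86% to 13.1%, so replicates 6 and 7 were below all others and replicate 2 was not. Mir370 alone was higher in replicate 6 (2.57 TPM) than in any other library but replicate 12 (3.9 TPM). By contrast the 30-base entry AF357359 (chr12:109650709-109650738), inside a Rian exon, was at 150, 206 and 263 TPM in the low libraries and at 191 to 451 TPM elsewhere. Of the entries inside Mirg, Mir3072 was at 1.81, 4.64 and 1.13 TPM against 6.11 to 15.2 TPM. Mir1906-1 and Mir1906-2, listed at the same 80 bases of a Meg3 exon (chr12:109544541-109544620), had nearly the same values, and the former was at 4.9, 3.43 and 2.25 TPM against 14.8 to 25.5 TPM. RefSeq places Mir1906-2 on chromosome X with the same mature sequence, so the 2 cannot be told apart here. These entries are 30 to 120 bases long, shorter than a sequenced fragment, and reads of the host transcript cover them, so they report precursor sequence and not mature microRNA, and their levels are uncertain.

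The 14 microRNA entries in the region with at least 1 TPM gave 25 mature sequences from RefSeq (GRCm38.p6) with 22 different seeds. Shared seeds occurred only where 2 entries repeat a microRNA (Mir1906-1 with Mir1906-2, and Mir3070a with Mir3070b). For the microRNA entries described above, 1 mature form each is shown 5′ to 3′, with the seed (bases 2 to 8) in capitals.
mmu-miR-1906 (Meg3): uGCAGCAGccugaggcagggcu
mmu-miR-341-3p (Rian): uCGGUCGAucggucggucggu
mmu-miR-1188-5p (Rian): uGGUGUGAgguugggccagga
mmu-miR-370-3p (Rian): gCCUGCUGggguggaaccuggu
mmu-miR-3072-3p (Mirg): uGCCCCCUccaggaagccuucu

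A further value was the mean length of a gene's transcripts. In these tables coverage and FPKM of a gene differ by a factor that is shared by all genes with a single transcript in a library, so their ratio was read as the abundance-weighted mean transcript length as a percentage of the gene's merged exons. This reading was inferred from the values and is not stated in the sources used here. The length is also not separate from the levels above. FPKM and TPM differ only by a factor per library, and TPM was used to choose the members. Malat1, Rian, Mirg and Snhg11 were at 100% in all libraries and Miat at 99.5% to 99.6%. Meg3, a gene with many splice forms, was at 77.4% ± 0.36 (SD, n = 4) for p16 WT CTL and 77.7% ± 0.96 for p16 KO CTL. The runners were at 77.35% ± 0.42 (p16 WT RUN) and 77.2% ± 0.52 (p16 KO RUN), and all groups overlapped. The low libraries held both its lowest value (76.4% in replicate 7) and its highest (78.55% in replicate 6), so the 2 libraries with the least Meg3 lay at opposite ends of the range of mean length.

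Neat1 has a short and a long form that share their 5′ end, of which the long one spans the whole 20771 bases and builds paraspeckles. Its mean transcript length was 15.3% to 15.5% of the merged exons in 15 libraries, near the short form. In p16 KO CTL replicate 6, the library with the lowest Neat1 level, it was 25.5%, which corresponds to 5289 bases against 3188 to 3192 bases in the other 3 p16 KO CTL libraries. The low replicates 2 and 7 were at the value of the other libraries. At a given coverage a longer assigned length gives a lower TPM. The longer length and the lowest level in replicate 6 are thus not separate observations. Coverage of Neat1 was 15.05 in replicate 6 at a relative depth of 1.15, and 26.5 in replicate 7 at 1.91.

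**Figure D5:**
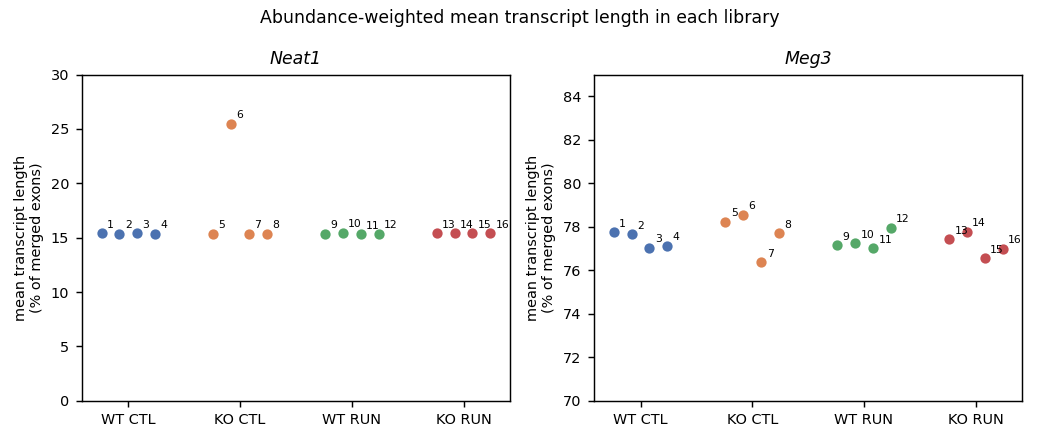
Abundance-weighted mean transcript length in percent of merged exon length (vertical axis; from 0 for Neat1, cut to 70% to 85% for Meg3) in the 16 libraries, by group, with replicate numbers. Neat1 stands at 25.5% in p16 KO CTL replicate 6 and at 15.3% to 15.5% elsewhere, and Meg3 lies between 76.4% and 78.55% in all groups.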

How the data were processed

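RNA of the dentate gyrus was sequenced in 16 libraries from mRNA (Universal Plus mRNA-Seq kit, per the labels). RNA without a poly(A) tail, such as the long form of Neat1, may be captured unevenly. The authors used STAR for alignment to mm10 and StringTie for abundances. Their submitters' processing notes also name bcl2fastq 2.20 and cutadapt 1.11. The TPM values, the FPKM values and the coverage values were deposited per gene. The tables hold no read counts, so counting error is unknown. Entries of the same name were summed.

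TPM was divided by the median ratio to the mean library over 13226 genes at 1 TPM or more in all 16 libraries. Genes averaging 0.1 TPM or more were fitted with limma 3.58.1 (R 4.3.3), on the log2 of scaled TPM plus 0.1 (empirical Bayes, variance trend, 8 libraries per set, 16 for the interaction), with Benjamini-Hochberg adjustment over 17317 genes. P-values measure the spread between pools of 2 mice. The procedure was tested on simulated data.

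The members and lists were chosen with earlier results of these data known. Genes named were the members, the 3 most alike to each, the 5 highest and 5 lowest for the member score (1 of them is not reported here), up to 4 of smallest p per list and set (some are given only in counts), entries of at least 1 TPM between Dlk1 and Dio3 or inside a member, and Cdkn2a. Other long noncoding RNAs described by their levels were named after their values were seen. Alternatives were filters, pseudocounts, scalings, FPKM, the samples in the fit, the variance trend, the entry per name and each library left out. No paired analysis was possible because the 4 groups share no replicate numbers.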

Additional observations from a re-analysis of the deposited data

Results flagged for a closer look

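In p16 KO CTL replicate 6 the mean Neat1 transcript length was 25.5% of the merged exons, and the other 3 libraries of its group were at 15.35% to 15.37%. The gap made up 0.998 of the range of the group, above Dixon's 95% limit for 4 samples. It was the only one of 12 group checks (transcript length of Neat1, Meg3 and Miat in 4 groups) to pass that limit. Chance alone passes about 1 in 20 in each single check, so 1 pass among 12 checks is not rare. The length itself is a reading inferred from the deposited values. It rests on FPKM, and the members were chosen on the spread of TPM, so passing the limit is a flag and no test.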

How the results depend on the processing

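Other filters, pseudocounts, scalings, units and fits moved the median log2 difference of the 7 members by less than the spread between libraries. Leaving out 1 library gave medians of 0.57 to 1.45 in Set A, -1.35 to -0.45 in Set B, -0.06 to 0.31 in Set C, -0.07 to 0.32 in Set D, -0.07 to 0.09 in Set E and 0.43 to 1.33 in the interaction. The smaller sizes in Sets A and B and the interaction came without p16 KO CTL replicate 6 or 7, the larger ones without replicate 8, and the negative ones in Sets C and D without p16 WT CTL replicate 2. Leaving out replicates 2, 6 and 7, chosen after seeing the data, moved it from 0.99 to -0.11 in Set A, from -0.87 to 0.0844 in Set B and from 0.85 to -0.10 in the interaction, and the median r of the 21 pairs from 0.905 to 0.30. It also moved the list genes passing an unadjusted p under 0.05 from 114 to 45 in Set A, 18 to 31 in Set C, 36 to 62 in Set D and 28 to 52 in the interaction, and the genes passing in Set A from 3196 to 1470. With no filter 68 list genes passed in Set A and 11 in Set B (21 as reported), and with no variance trend 73 and 8. With all 16 libraries in the fit 63 list genes passed in Set B, 18 in Set D and 7 in Set E (22 as reported), and 2205 of all genes in Set B against 1158. The cause was not tested. Leaving out 1 library at a time, the list genes passing were 46 to 183 in Set A, 7 to 74 in Set B, 7 to 31 in Set C, 23 to 62 in Set D, 17 to 34 in Set E and 14 to 87 in the interaction. They moved by over 1.5 times without p16 KO CTL replicate 5, 6 or 7 or p16 KO RUN replicate 13, 14 or 15 in Set A, without any library in Set B, without p16 WT CTL replicate 2 or 4 or p16 WT RUN replicate 10 or 11 in Set C, without p16 KO RUN replicate 14 or p16 WT CTL replicate 2 in Set D, without p16 WT RUN replicate 10 in Set E, and without replicate 1, 2, 3, 5, 7, 8, 12, 13 or 15 in the interaction. Over all genes the same ranges were 2023 to 4738 in Set A, 557 to 3029 in Set B, 531 to 1018 in Set C, 486 to 1048 in Set E and 619 to 2381 in the interaction. Of the list genes passing in Set A, 36 were higher and 78 lower, and this was 45 and 58 with TPM as deposited and 38 and 48 with quantile normalization. In Set B 16 were higher and 5 lower, against 10 and 8, then 11 and 10, and 15 and 16 without the low libraries. In Set C 10 were higher and 8 lower, against 10 and 12 with quantile normalization and 13 and 18 without the low library.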
